A study of Mus musculus with 2 samples.

Results

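Versican, aggrecan, hyaluronan and the proteins that bind, load or cut them form the soft, water-holding matrix whose build-up gives a myxomatous valve its name. The genes described here are 9 of the 32285 genes in the count matrices: the proteoglycan core proteins versican (Vcan) and aggrecan (Acan), the link protein Hapln1, the hyaluronan synthases Has1 and Has2, the hyaluronan receptor Cd44, the hyaluronan-modifying protein TSG-6 (Tnfaip6), and the proteoglycan-cutting proteases Adamts1 and Adamts5. They were chosen by gene symbol for their role, and the rule uses no measured value, although earlier results of these data were known when it was made. All 9 were present as rows and had UMIs in both libraries. Of these, 8 reached 100 UMIs in fibroblasts over both libraries, 5 did so in endothelium and 1 in macrophages.

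Hyaluronan is a long, unbranched sugar chain that Has enzymes spin out at the cell surface. Versican and aggrecan bind it through their N-terminal domain, link protein locks that bond, and the chondroitin sulfate chains on the core proteins draw in water. TSG-6 transfers heavy chains of inter-alpha-inhibitor onto hyaluronan, CD44 anchors hyaluronan to cells, and ADAMTS1 and ADAMTS5 cleave the core proteins. In the developing heart, hyaluronan and versican fill the endocardial cushions from which the valves form.

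Single-cell RNA-Seq was performed on mitral valve cells of WT mice, which were Fbn1+/+ littermates, and of mice homozygous for the mgR allele (Fbn1 mgR/mgR), both at 12 weeks of age per the study's text. The mgR allele is a hypomorph of the fibrillin-1 gene in every cell of the animal, so it is not specific to valve fibroblasts. The mice had a C57BL/6J background, and no treatment is given for either group. Each genotype has 1 library. The study's text gives n = 3 for this experiment and does not say whether 3 mice were pooled per library. Cells carry no mouse label, and the spread between mice is unknown. No test was therefore possible: all intervals are 95% intervals of counting error, and differences between libraries cannot be told apart from differences between genotypes. The WT library gave 875 cells with a median of 5033 UMIs (unique molecular identifiers, 1 per captured RNA molecule) and the mgR library 3438 cells with a median of 7370.

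Cells were put into classes by marker UMIs. Fibroblasts, the interstitial cells of the leaflet, held at least 10 UMIs of Col1a2, Col3a1 and Dcn together, macrophages at least 10 of C1qa, C1qb and C1qc, and endothelium at least 2 of Pecam1 and Cdh5. Cells that passed 1 of these rules alone numbered 322 WT and 879 mgR fibroblasts, 224 and 1539 macrophages, and 29 and 150 endothelial cells. Another 28 WT and 304 mgR cells passed both the fibroblast and the endothelial rule and are given apart. Markers that the rule did not use followed the classes: Lum, a fibroblast proteoglycan, stood at 1961 and 1958 CPM (counts of a gene per 1000000 UMIs of the class) in fibroblasts against 2.08 and 4.01 in macrophages, and Csf1r, a macrophage receptor, at 792 and 841 CPM in macrophages against 2.37 and 7.09 in fibroblasts. Emcn, an endothelial sialomucin, stood at 281 and 324 CPM in endothelium. The classes were not pure. Lum was at 76.5 and 71.1 CPM in endothelium, and T cell genes summed to 122 CPM in mgR endothelium. The mural genes Rgs5, Notch3, Kcnj8 and Abcc9 summed to 225 and 187 CPM in fibroblasts, so that class can also hold mural cells.

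The libraries differed in sex-linked transcripts. Xist UMIs without Y-linked UMIs were found in 28.1% of WT and 60.8% of mgR cells, and Y-linked UMIs without Xist in 38.5% and 21.1%. The labels give no sex and the study's methods name male mice. Among fibroblasts, 81 WT and 523 mgR cells carried Xist alone and 144 and 212 carried Y-linked UMIs alone, so the main ratios between the libraries are also given within these groups of cells. Fbn1, the gene altered in mgR mice, was read in fibroblasts at 171 CPM (152 to 192) in WT and 135 CPM (126 to 145) in mgR, a ratio of 0.790 (0.691 to 0.907). It was at 0.661 (0.531 to 0.829) in Xist cells and 0.844 (0.671 to 1.06) in Y-linked cells. The study describes the Fbn1 mRNA of homozygous mgR mice as severely reduced. How the milder ratio read here relates to that was not tested.

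The 9 genes lie on 6 chromosomes of the GRCm38 assembly, and all are protein-coding. Vcan (chr13:89655312-89742509, minus strand) and Hapln1 (chr13:89539796-89611652, plus strand) are neighbours with 43659 bases and no protein-coding gene between them. Adamts1 (chr16:85793827-85803113) and Adamts5 (chr16:85856173-85901828) are likewise neighbours on the minus strand, 53059 bases apart. Tnfaip6 (chr2:52038009-52056686, plus strand) and Cd44 (chr2:102811141-102901665, minus strand) share a chromosome, and Acan (chr7:79053483-79115099, plus strand), Has2 (chr15:56665627-56694539, minus strand) and Has1 (chr17:17843323-17855205, minus strand) stand alone. Has2os, transcribed from the opposite strand, overlaps Has2, and no gene overlaps any of the 9 on its own strand.

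Tnfaip6 and Adamts1 were the members whose UMIs went together most closely from fibroblast to fibroblast, as described below, and the sequences before their start sites are therefore shown. They come from RefSeq on GRCm38.p6 and run 5′ to 3′ toward the gene. Capitals mark matches on either strand to the AP-1 motif TGANTCA, the TATA box TATAAA or the CCAAT box, and the cyclic AMP response element TGACGTCA was searched as well. No match overlapped another. The Adamts1 stretch holds the 250 bases before the RefSeq start (chr16:85803114-85803363, minus strand), and the Tnfaip6 stretch (chr2:52037863-52038008, plus strand) holds the first 146 of 250, since the GENCODE gene starts 104 bases before the RefSeq one.
Tnfaip6: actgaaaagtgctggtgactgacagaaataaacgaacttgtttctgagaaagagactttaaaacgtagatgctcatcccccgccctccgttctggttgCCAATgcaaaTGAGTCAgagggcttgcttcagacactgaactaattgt
Adamts1: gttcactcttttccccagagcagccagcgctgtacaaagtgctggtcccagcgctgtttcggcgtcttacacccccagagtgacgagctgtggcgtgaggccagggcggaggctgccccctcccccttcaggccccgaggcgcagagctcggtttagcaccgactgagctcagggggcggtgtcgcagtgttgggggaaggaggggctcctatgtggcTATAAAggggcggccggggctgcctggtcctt

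Tnfaip6 held TGAGTCA, a form of the AP-1 motif TGANTCA, 142 bases before the RefSeq start, and CCAAT 152 bases before it. Adamts1 held TATAAA 32 bases before its start and none of the other motifs. Of all 32851 promoters in the table, 6.75% held TGANTCA in the 250 bases before the start, 12.4% held TATAAA, 33.8% held CCAAT and 1.55% held TGACGTCA. Among the 7 members with a promoter entry, TGANTCA was found before Tnfaip6, TATAAA before Adamts1, TGACGTCA before Has1 and CCAAT before 4 of them. These are letter matches, not measured binding sites.

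Vcan, the main large proteoglycan of the leaflet, was read above all in fibroblasts. Its level was 795 CPM (753 to 839) in WT fibroblasts and 602 CPM (583 to 622) in mgR fibroblasts. Fibroblasts held 1343 of the 1407 Vcan UMIs of the WT library and 3736 of the 4383 of the mgR library. In endothelium Vcan stood at 93.6 CPM (46.7 to 167) in WT and 135 CPM (112 to 162) in mgR, which is 0.118 (0.0586 to 0.211) and 0.225 (0.185 to 0.270) times the fibroblast level. In macrophages it was near the bottom of the scale, at 2.77 and 3.05 CPM.

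**Figure D1:**
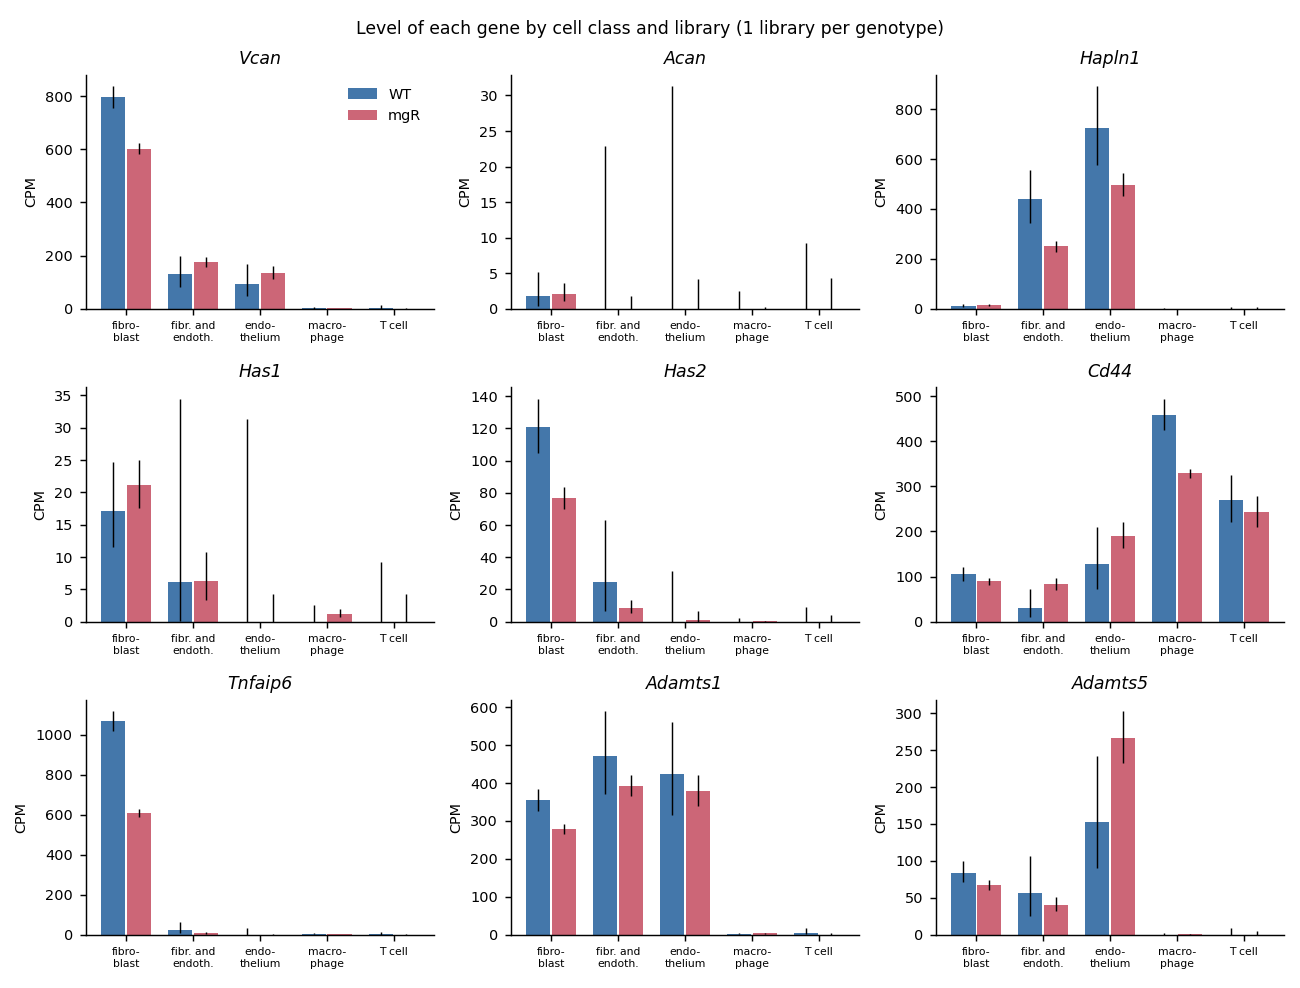
CPM of each of the 9 genes in 5 groups of cells, for the WT library (blue) and the mgR library (red). Bars are UMIs of the gene per 1000000 UMIs of the class and lines are 95% Poisson intervals of counting error. Vcan, Has1, Has2 and Tnfaip6 stand highest in fibroblasts, Hapln1 in endothelium (723 and 496 CPM) and Cd44 in macrophages (458 and 329 CPM), while Adamts1 and Adamts5 are read in both fibroblasts and endothelium.

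The hyaluronan synthases and Tnfaip6 followed Vcan into the fibroblasts. Has2, the main synthase of the developing heart, was at 121 CPM (105 to 139) in WT fibroblasts and 76.6 CPM (69.8 to 83.8) in mgR fibroblasts, with 0 UMIs in WT and 1 UMI in mgR endothelium. Has1 had 29 UMIs in WT and 131 in mgR fibroblasts. Tnfaip6 was at 1067 CPM (1018 to 1117) and 607 CPM (588 to 627) in fibroblasts, which held 98.8% and 96.8% of its UMIs in the libraries, and it had 0 UMIs in the endothelium of either library. Acan, the aggrecan gene best known from cartilage, gave 3 UMIs in WT and 13 in mgR, all of them in fibroblasts.

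Hapln1, whose product ties versican to hyaluronan, had the opposite location to its chromosomal neighbour Vcan. It stood at 723 CPM (577 to 894) in WT endothelium and 496 CPM (451 to 545) in mgR endothelium, against 13.0 and 15.2 CPM in fibroblasts. The endothelial level was 55.5 times (34.4 to 93.2) the fibroblast level in WT and 32.8 times (26.2 to 41.4) in mgR. Within the endothelium, cells with more Wnt9b, Nts and Dkk2 UMIs than Prox1, Vwf and Emcn UMIs (13 WT and 74 mgR cells) held Hapln1 at 1135 and 774 CPM, against 260.4 and 191 CPM in the opposite cells (13 and 58), with 10 and 31 cells within 1 or 2 UMIs of the line. That is a ratio of 4.36 (2.30 to 9.11) in WT and 4.06 (3.04 to 5.51) in mgR, with overlapping intervals. The cells over both the fibroblast and the endothelial rule held Hapln1 at 439.9 and 250.4 CPM and Tnfaip6 at 24.8 and 8.70 CPM.

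The proteases were read in both the stroma and its lining. Adamts1 was at 355 CPM (327 to 384) in WT and 279 CPM (266 to 292) in mgR fibroblasts, and at 425 CPM (316 to 561) and 379 CPM (340 to 423) in endothelium. In WT these intervals overlapped, and in mgR the endothelial level was 1.36 times (1.21 to 1.53) the fibroblast level. Adamts5, a versican-cutting protease of remodelling heart valves, was at 84.1 CPM (70.8 to 99.1) and 66.9 CPM (60.6 to 73.7) in fibroblasts and at 153 CPM (90.7 to 242) and 266 CPM (233 to 302) in endothelium. Its endothelial level was 1.82 times (1.05 to 2.98) the fibroblast level in WT and 3.98 times (3.37 to 4.68) in mgR.

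By class, Cd44 was highest in leukocytes, and it was also read in endothelium and fibroblasts. It stood at 458 CPM (424 to 495) in WT and 329 CPM (319 to 339) in mgR macrophages, at 269 and 243 CPM in cells with at least 2 UMIs of Cd3d, Cd3e and Cd3g, at 128 and 190 CPM in endothelium, and at 105 CPM (89.9 to 121) and 89.6 CPM (82.3 to 97.4) in fibroblasts. In endothelial cells with more Wnt9b, Nts and Dkk2 than Prox1, Vwf and Emcn UMIs, Cd44 was at 171 CPM (85.4 to 306) in WT. In mgR it was at 265 CPM (221 to 316) in such cells, near the T cell level. The opposite endothelial cells held 23.7 CPM, on 1 UMI, in WT and 45.9 CPM in mgR. Outside the stroma and endothelium, Vcan was also seen in mgR cells with at least 5 UMIs of the monocyte genes Ly6c2, Plac8 and Chil3. Cd44 in these cells stood at 404 CPM (250.3 to 618) in WT and 466 CPM (410 to 528) in mgR, the latter 1.42 times (1.24 to 1.61) the macrophage level. The mgR cells held 37 Vcan UMIs (69.3 CPM, 48.8 to 95.5), found in 11 of 65 cells, and 2 cells held at least as much as all others together. The 10 such WT cells held 0, which allows up to 71.0 CPM at 95%, so a difference between the libraries was not detectable at this depth. The monocyte cells also carried neutrophil transcripts (13514 CPM in WT and 3124 CPM in mgR for S100a8, S100a9 and Csf3r together). In mgR they held B cell genes at 1088 CPM and T cell genes at 240 CPM as well, and in WT melanocyte genes at 1040 CPM. The group was thus mixed, and the part of these transcripts in its Vcan and Cd44 values was not tested.

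In fibroblasts, Tnfaip6 and Has2 had the lowest ratios of mgR to WT and Vcan was lower by less, but the calls of the first pair were lost in Xist cells (0.936 and 1.04), while Vcan was below 1 in Xist and Y-linked cells (0.729 and 0.767). The ratio of mgR to WT was 0.569 (0.538 to 0.602) for Tnfaip6, 0.634 (0.537 to 0.751) for Has2 and 0.757 (0.711 to 0.807) for Vcan. Adamts1 was at 0.785 (0.715 to 0.863) and Adamts5 at 0.796 (0.656 to 0.970) of the WT level, and Cd44 at 0.855 (0.721 to 1.02). In Xist and Y-linked cells, Adamts1 was at 1.19 (0.960 to 1.48) and 0.921 (0.810 to 1.05). Both of these intervals include 1, and the pooled Adamts1 ratio lay below both values. Adamts5 (0.347 and 1.31) and Cd44 (1.80 and 0.498) fell on opposite sides of 1 in these groups. Has1 and Hapln1 gave ratios of 1.23 (0.818 to 1.91) and 1.16 (0.725 to 1.94), whose intervals include no difference in either direction. With 1.5-fold as the limit, 2 of the 8 members tested were lower in mgR (Tnfaip6 and Has2) and 0 were higher, where 5.83% of the 7466 fibroblast genes with at least 100 UMIs were past that limit downward and 4.77% upward. The median log2 ratio was -0.34 over the 8 members and -0.03 over all 7466 genes.

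**Figure D2:**
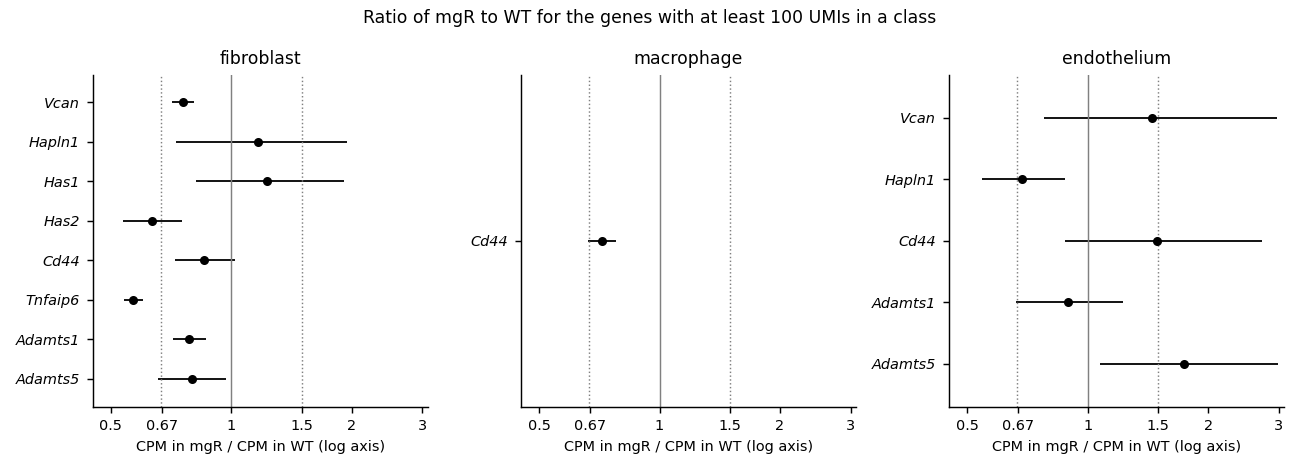
Ratio of the CPM in mgR to that in WT for each gene with at least 100 UMIs in a class, on a log axis. Points are ratios, lines are 95% intervals of counting error, the solid line marks no difference and the dotted lines mark 1.5-fold. In fibroblasts Tnfaip6 (0.569) and Has2 (0.634) lie left of the dotted line, and in endothelium Adamts5 (1.74) lies right of it while Hapln1 (0.687) lies between the lines.

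The members were also described by the share of fibroblasts with a UMI after every cell was reduced to 2000 UMIs. Vcan was then detected in 56.5% (50.6 to 62.3) of 292 WT fibroblasts and 49.4% (46.0 to 52.8) of 846 mgR fibroblasts. Tnfaip6 was detected in 41.8% (36.1 to 47.7) and 29.2% (26.2 to 32.4), and Has2 in 14.0% (10.3 to 18.6) and 9.22% (7.36 to 11.4). The share with Adamts1 was 26.7% in WT and 25.1% in mgR, and the share with Adamts5 10.96% and 11.9%. The intervals of the libraries overlapped for each of these genes except Tnfaip6. At their own depth, with medians of 5182 and 6729 UMIs, 72.7% of WT and 68.3% of mgR fibroblasts held Vcan. T cells, which should lack these genes, held no UMI of any member except Cd44 at 2000 UMIs, in 84 WT cells (upper 95% limit 4.30%) and 146 mgR cells (upper limit 2.49%), with median depths of 4145 and 5062 UMIs. These T cell limits lay below the fibroblast shares of Vcan, Tnfaip6, Has2, Adamts1 and Adamts5. At their own depth, the 90 WT T cells held 1 Vcan, 1 Tnfaip6 and 2 Adamts1 UMIs, and the 148 mgR T cells 1 Hapln1 UMI. The part of free RNA in the fibroblast shares was not tested.

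For Vcan, Tnfaip6, Has2 and Adamts1, the share of UMIs held by the fibroblasts with most of them was also taken. Cells kept their own depth here, and the share to be had from sparse counting alone was not computed. The 10% of fibroblasts with most Vcan UMIs held 44.5% of them in WT and 49.5% in mgR. For Tnfaip6 the top 10% of cells held 67.7% and 72.6%, for Has2 77.9% and 75.6%, and for Adamts1 63.3% and 60.01%. The curves of the libraries lay close together for all of them.

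**Figure D3:**
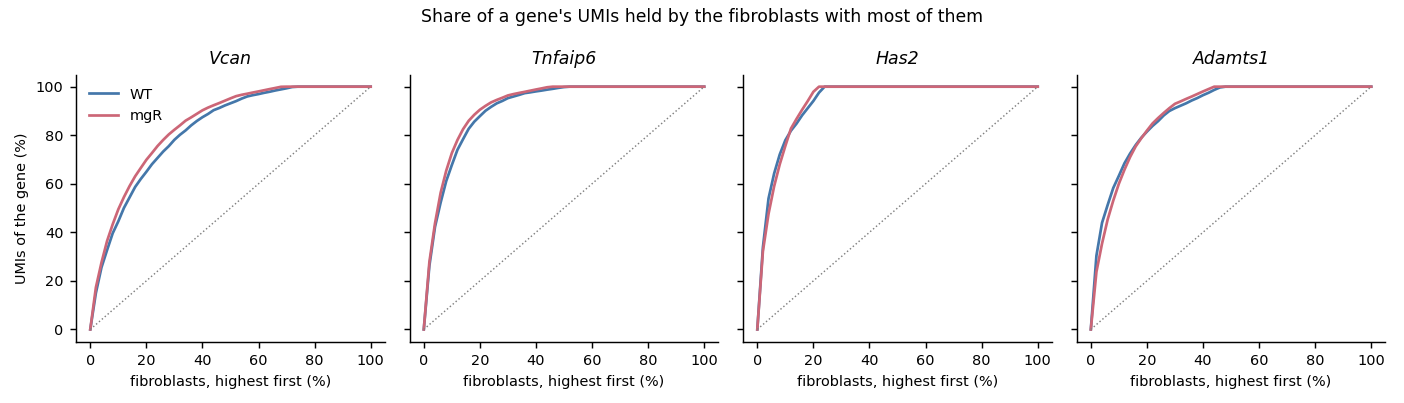
Share of a gene's UMIs (vertical, %) held by the fibroblasts with most of them (horizontal, % of fibroblasts from the highest down), for WT (blue) and mgR (red). The dotted line is an even spread, and at 10% of cells the curves pass 44.5% and 49.5% for Vcan, 67.7% and 72.6% for Tnfaip6, 77.9% and 75.6% for Has2 and 63.3% and 60.01% for Adamts1.

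The members divided the fibroblasts along an axis that they did not define. Fibroblasts with more UMIs of the tendon and cartilage-surface genes Fmod, Prg4 and Scx than of Ptx3, Igfbp3 and Smoc2 (129 WT and 418 mgR cells) are called the Fmod side here, and those with the reverse (144 and 354) the Ptx3 side. The remaining 49 and 107 cells were ties, and 65 and 159 cells lay within 1 or 2 UMIs of the dividing line. Vcan stood at 998 CPM on the Fmod side and 557 CPM on the Ptx3 side in WT, and at 694 and 503 CPM in mgR. The Fmod side was thus higher by 1.79 times (1.59 to 2.03) in WT and 1.38 times (1.29 to 1.48) in mgR, and all Acan UMIs were found there.

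Tnfaip6 and the proteases lay on the opposite side. Tnfaip6 stood at 453 CPM on the Fmod side against 1803 CPM on the Ptx3 side in WT, and at 186 against 1195 CPM in mgR. Adamts1 stood at 118 against 625 CPM in WT and 90.9 against 502 CPM in mgR, with ratios of 0.188 (0.148 to 0.237) and 0.181 (0.158 to 0.206). Adamts5 was likewise lower on the Fmod side, at 28.4 against 153 CPM and 41.3 against 99.2 CPM. Versican message and the messages of versican-cutting proteases were thus highest on different sides in both libraries. Has2 leaned to the Ptx3 side in WT (95.9 against 149 CPM, ratio 0.643, 0.471 to 0.873) and showed no clear lean in mgR (78.0 against 82.3 CPM, ratio 0.947, 0.783 to 1.15). Immediate early and heat shock genes, which react to handling of tissue, also differed between the sides: 12 such genes summed to 5894 CPM on the Fmod side and 8885 CPM on the Ptx3 side in WT, and to 5656 and 10605 CPM in mgR. Leaflets were digested for 60 minutes, and the part of these genes in the Tnfaip6 and Adamts1 values was not tested.

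**Figure D4:**
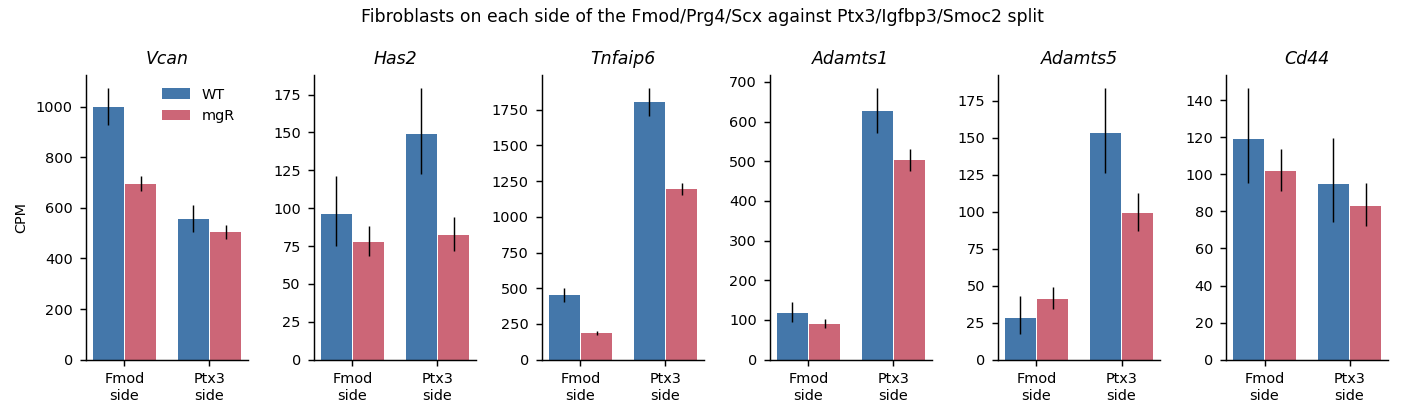
CPM of 6 genes in fibroblasts of the Fmod side and the Ptx3 side, for WT (blue) and mgR (red), with 95% Poisson intervals. Vcan is higher on the Fmod side (998 and 694 CPM against 557 and 503), and Tnfaip6, Adamts1 and Adamts5 are higher on the Ptx3 side in both libraries.

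The ratios between the libraries were also taken within each side. The ratio of mgR to WT for Vcan was 0.695 (0.639 to 0.757) on the Fmod side and 0.903 (0.808 to 1.01) on the Ptx3 side. For Tnfaip6 it was 0.410 (0.358 to 0.471) and 0.663 (0.621 to 0.707), below 1 on both. For Has2 it was 0.813 (0.622 to 1.07) and 0.552 (0.437 to 0.701). Adamts5 went to 1.45 (0.912 to 2.43) on the Fmod side, on 21 WT UMIs, and to 0.648 (0.518 to 0.815) on the Ptx3 side. A difference between the sides in these ratios was not tested. Ptx3, which helps set the sides, was itself lower in mgR fibroblasts (0.611, 0.564 to 0.662). The part of this in the ratios within a side was not tested.

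Within fibroblasts sorted by sex-linked transcripts, Vcan was the member whose interval lay below 1 in both groups. Vcan was lower in mgR in both groups, with a ratio of 0.729 (0.656 to 0.812) among Xist cells and 0.767 (0.692 to 0.851) among Y-linked cells. Has2 was at 1.04 (0.741 to 1.51) among Xist cells and 0.509 (0.395 to 0.656) among Y-linked cells. Tnfaip6 was at 0.936 (0.828 to 1.06) and 0.682 (0.628 to 0.741), so that the interval of the Xist cells includes 1 and the pooled ratio of 0.569 lay below both. In WT itself, Tnfaip6 stood at 628 CPM in Xist cells and 1308 CPM in Y-linked cells. Among all fibroblasts, Xist cells were 25.2% in WT and 59.5% in mgR, and the part of this in the pooled ratio was not tested. For Tnfaip6 and Has2 the call past 1.5-fold was lost in Xist cells, and for Tnfaip6 also in Y-linked cells.

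**Figure D5:**
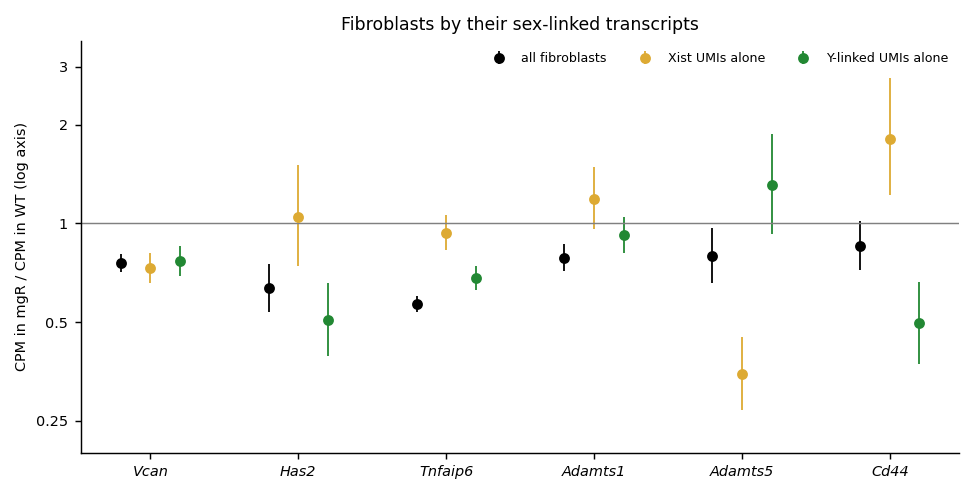
Ratio of the CPM in mgR to that in WT in all fibroblasts (black), in fibroblasts with Xist UMIs alone (yellow) and in those with Y-linked UMIs alone (green), on a log axis with 95% intervals of counting error. Vcan lies below 1 in all groups (0.757, 0.729 and 0.767), while Cd44 (1.80 and 0.498) and Adamts5 (0.347 and 1.31) fall on opposite sides of 1 in the Xist and Y-linked cells.

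When fibroblasts were split by both side and sex-linked transcripts, Vcan was lower in mgR in 3 of 4 groups of fibroblasts. The ratios on the Fmod side were 0.553 (0.481 to 0.639) in Xist cells and 0.853 (0.739 to 0.987) in Y-linked cells, and those on the Ptx3 side 1.35 (1.09 to 1.69) and 0.630 (0.529 to 0.751). The Xist cells of the Ptx3 side, where Vcan was higher in mgR, were 38 in WT and 206 in mgR. Those of the Fmod side, with the lowest ratio, were 30 and 271. The lower pooled Vcan level in mgR fibroblasts was thus not seen in all 4 groups. A difference between the groups was not tested, and the intervals do not hold the spread between cells or mice. Tnfaip6 in Xist cells was at 1.29 (0.837 to 2.09) on the Fmod side and 1.03 (0.909 to 1.18) on the Ptx3 side, and in Y-linked cells at 0.568 (0.465 to 0.695) and 0.761 (0.693 to 0.836).

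In macrophages, Cd44 was the member with enough UMIs for the comparison. It went from 458 CPM in WT to 329 CPM in mgR, a ratio of 0.718 (0.661 to 0.780), which was short of 1.5-fold. The ratio was 0.824 (0.714 to 0.955) in Xist cells and 0.619 (0.538 to 0.714) in Y-linked cells, below 1 in both. At 2000 UMIs per cell, 53.7% (46.8 to 60.4) of 218 WT and 41.8% (39.3 to 44.3) of 1515 mgR macrophages held a Cd44 UMI. Macrophage genes as a whole leaned upward, with a median log2 ratio of 0.13, and 13.4% of 7953 genes were past 1.5-fold upward and 5.1% downward. Relative to that median the Cd44 ratio was 0.655.

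In endothelium, 5 members could be compared, on 29 WT cells. Hapln1 was lower in mgR, at 0.687 (0.543 to 0.877), and with cells that also passed another rule included it was at 0.580 (0.489 to 0.691). It was at 0.959 (0.626 to 1.54) among Xist cells and 0.481 (0.332 to 0.707) among Y-linked cells. The 85 WT Hapln1 UMIs lay in 13 cells, of which 3 held at least as much as all others together. Adamts5 went from 153 to 266 CPM, a ratio of 1.74 (1.08 to 2.98), and was the 1 member of 5 past 1.5-fold, where 14.7% of 1748 endothelial genes were past it upward and 5.72% downward. The Adamts5 difference rested on 18 WT UMIs in 8 cells and came to 1.13 (0.762 to 1.74) with cells that passed another rule included. It was at 1.11 (0.602 to 2.27) among Xist cells, which ends the call, and at 4.03 (1.61 to 51.0) among Y-linked cells, on 2 WT UMIs set to 3. Vcan (1.45, 0.779 to 2.98), Cd44 (1.49, 0.879 to 2.73) and Adamts1 (0.892, 0.661 to 1.23) had intervals that include no difference. With cells over another rule included, Cd44 passed 1.5-fold in place of Adamts5, at 1.60 (1.07 to 2.50), and Vcan was at 1.43 (1.002 to 2.10).

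Within fibroblasts, Vcan was detected more often in cells with Has2 than in cells without it, and Tnfaip6 more often in cells with Adamts1. At 2000 UMIs, Vcan was detected in 80.5% (65.1 to 91.2) of the 41 WT fibroblasts with a Has2 UMI and in 52.6% (46.2 to 58.9) of the 251 without, and in 71.8% of 78 and 47.1% of 768 in mgR. Tnfaip6 was detected in 64.1% of the 78 WT fibroblasts with Adamts1 and 33.6% of those without, and in 55.2% and 20.5% in mgR. Has2 was found in 21.3% of WT fibroblasts with Tnfaip6 and 8.82% of those without, and in 17.0% and 6.01% in mgR. Vcan and Adamts1 showed no such link, with Vcan in 51.3% of WT fibroblasts with Adamts1 and 58.4% without, and in 47.6% and 50% in mgR.

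The genes whose levels went most closely with a member from cell to cell differed between Vcan and the Ptx3-side members. Over 292 WT and 846 mgR fibroblasts thinned to 2000 UMIs and 4552 genes, the closest to Vcan was Postn, the matricellular protein periostin, with Pearson r of 0.28 in WT and 0.35 in mgR, followed by Tgfbi (0.26 and 0.21) and Dkk3 (0.21 and 0.21). The closest to Tnfaip6 were Nr4a2 (0.50 and 0.56), Klf4 (0.48 and 0.47) and Gem (0.50 and 0.46), the first of these an immediate early nuclear receptor and the second a transcription factor. The closest to Adamts1 were Klf4 (0.38 and 0.39), the AP-1 gene Junb (0.36 and 0.36) and Tnfaip6 itself (0.35 and 0.38). No gene reached 0.2 in both libraries for Has2. Cells of a library share its digestion and its free RNA, and these correlations are a description of these cells.

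The wider pathway was followed in 59 further genes that make, bind, sense or break down hyaluronan and chondroitin sulfate proteoglycans. In fibroblasts, 31 reached 100 UMIs, of which 1 was higher and 6 were lower in mgR by 1.5-fold (4.77% and 5.83% over all genes tested), with a median log2 ratio of -0.09 against -0.03 for all genes. None of the 7 tested genes of hyaluronan synthesis and breakdown was past that limit, and Ugdh, which makes the UDP-glucuronic acid that Has enzymes use, stood at 251 and 262 CPM. Ptx3, the pentraxin that stabilizes hyaluronan together with TSG-6 and also a marker of the Ptx3 side, went from 517 to 316 CPM (ratio 0.611, 0.564 to 0.662) and was lower in Xist cells (0.783) and Y-linked cells (0.604). Adamts15, another proteoglycanase, went from 58.0 to 28.5 CPM (ratio 0.492, 0.382 to 0.636), and was lower in both groups too (0.387 and 0.524). Of the genes that bind or sense versican, the innate receptor Tlr2 (0.660, 0.506 to 0.868) and the growth factor receptor Egfr (0.666, 0.519 to 0.860) were lower, while Fbln1 and Fbln2, fibulins that bind versican, gave 0.865 and 1.13. The inter-alpha-inhibitor family gene Itih4 (0.587) and the chondroitin sulfotransferase Ust (0.437) were lower, and the sulfotransferase Chst12 was higher (1.70, 1.12 to 2.68). Timp3, a tissue inhibitor that acts on ADAMTS proteases, stood at 2263 and 2508 CPM in fibroblasts. All 7 called genes kept their side of 1 in both Xist and Y-linked cells, and for 2 of them, Ptx3 and Adamts15, the intervals lay off 1 in both. These groups are parts of the cells that gave the calls, so the counts are no separate support for the calls.

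In macrophages, the hyaluronan receptor Lyve1 moved in the opposite direction to Cd44. Lyve1 went from 353 CPM in WT to 805 CPM in mgR, a ratio of 2.28 (2.09 to 2.50), and was higher in mgR among Xist cells (2.92, 2.45 to 3.51) and Y-linked cells (2.13, 1.89 to 2.41). The macrophage marker Mrc1 went from 941 to 1290 CPM, while Adgre1 was at 300 and 321 CPM and Cd68 at 542 and 549 CPM. Macrophages were not split into subsets, and the part of their mix in the Lyve1 value was not tested. Of 23 pathway genes with enough UMIs in macrophages, 9 were higher and 1 was lower by 1.5-fold (13.4% and 5.1% over all genes tested), with a median log2 ratio of 0.32 against 0.13 for all genes. The others that were higher were the hyaluronidases Hyal1 (2.003, 1.23 to 3.48) and Hyal2 (1.68, 1.03 to 2.93), the hyaluronan receptors Layn (1.58, 0.778 to 3.75) and Hmmr (4.22, 1.72 to 52.9, on 2 WT UMIs set to 3 and 118 in mgR), Egfr (1.88), Xylt2 (1.94), B3gat3 (1.64) and Chpf2 (1.96). Most rested on few WT UMIs, between 2 and 28 for all of them but Lyve1. Gfpt1, which feeds the hexosamine pathway, was lower (0.525, 0.410 to 0.678). Of the 10 called genes, 9 kept their side of 1 in both Xist and Y-linked cells (Hmmr did not), and for 1, Lyve1, the intervals lay off 1 in both. Here too the groups are parts of the cells that gave the calls. In Xist cells Chpf2 had 0 WT UMIs and Layn 1, each set to 3.

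In endothelium, 5 pathway genes could be compared and 3 were higher in mgR by 1.5-fold, against 14.7% of all genes tested. Timp3 went from 1021 to 1613 CPM (1.58, 1.31 to 1.92), Adamts8 from 93.6 to 206 CPM (2.21, 1.20 to 4.50) and the cell-surface hyaluronidase Cemip2 from 102 to 177 CPM (1.73, 0.962 to 3.42), the last with an interval that includes no difference. Adamts8 was below 1 among Y-linked cells (0.409, 0.186 to 0.968) and had 0 WT UMIs among Xist cells. Timp3 was at 1.24 (0.956 to 1.63) in Xist cells and 1.20 (0.841 to 1.75) in Y-linked cells, so neither group alone passed 1.5-fold. The median log2 ratio was 0.66 over these 5 genes and 0.09 over all endothelial genes.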

How the data were processed

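Leaflets of the mitral valve were digested with collagenase A and elastase and viable cells were sorted per the methods of the study, and droplet libraries were made with 10x Genomics 3′ v3 chemistry per the labels. The authors deposited counts: UMIs per gene and barcode from Cell Ranger 7.1.0 (mm10 per the submitters' processing notes), not normalized. The annotation and the handling of intronic reads are not given in the sources used here. Free RNA was not removed.

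Cells with 200 to 5000 genes and at most 10% mitochondrial UMIs were kept, which left out 229 WT and 364 mgR barcodes (2 barcodes were shared by the libraries, 0 among kept cells). Library totals were 5381844 UMIs for WT and 28215539 for mgR. Doublets were not removed. Scrublet, run through scanpy 1.11.5, marked 9 WT cells (1.03%) and 52 mgR cells (1.51%), 37 of the latter over more than 1 class rule. Cells over more than 1 rule entered no class.

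UMIs were summed per class and library and divided by the class total (CPM). Levels carry exact Poisson intervals, CPM ratios exact conditional binomial intervals and shares Clopper-Pearson intervals, all at 95% and for counting error only. Levels below 3 UMIs in a library were set to 3 in ratios. CPM here counts molecules, not bases, so levels were not compared between genes. A gene was tested with at least 100 UMIs in a class over both libraries and called past the fold at 1.5-fold. The arithmetic was tested on simulated data.

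The members, gene lists and class rules were chosen with earlier results of these data known. Named genes are all 9 members, list genes past 1.5-fold, and, for each member with at least 200 UMIs in the fibroblasts of each library, the 3 genes with the highest smaller r of the libraries, at r of at least 0.2; a few list genes that did not pass (Ugdh, Fbln1, Fbln2, Timp3 in fibroblasts) were named after their values were seen. Gene identifiers of 32235 of 32285 features were found in the GENCODE annotation of GRCm38.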

Additional observations from a re-analysis of the deposited data

Results flagged for a closer look

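Cd44 in fibroblasts had ratios of mgR to WT on opposite sides of 1 by sex-linked transcripts: 1.80 (1.22 to 2.77) in Xist cells and 0.498 (0.373 to 0.664) in Y-linked cells. The underlying levels were 58.3 and 105 CPM in WT and mgR Xist cells, and 130 and 64.7 CPM in Y-linked cells. On the Ptx3 side alone the ratios were 3.25 (1.54 to 8.22), on 7 WT UMIs, and 0.422 (0.266 to 0.665). The difference between the groups was not tested, since each holds 1 library per genotype.

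Adamts5 was higher in mgR endothelium (ratio 1.74) and lower in mgR fibroblasts (ratio 0.796). The difference between the classes was not tested, and the endothelial value rests on 18 WT UMIs and was 1.11 (0.602 to 2.27) in Xist cells and 4.03 (1.61 to 51.0) in Y-linked cells, the latter on 2 WT UMIs. Among fibroblasts the Adamts5 ratio was 0.347 (0.270 to 0.451) in Xist cells and 1.31 (0.926 to 1.87) in Y-linked cells, and 10 WT fibroblasts held at least 50% of the WT UMIs of the gene, with up to 24 UMIs in a cell.

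Barcodes outside the cell filters also held UMIs of the members, 128 in the 229 WT barcodes and 289 in the 364 mgR barcodes, among them 55 of Vcan in WT and 105 of Cd44 in mgR.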

How the results depend on the processing

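Ratios of the members were recomputed under 9 settings. Of 126 values, 101 stayed within the counting interval of the reported ratio, 24 left it and 1 past 1.5-fold turned: Has2 in fibroblasts, to 1.04 in Xist cells. Of all 126, 11 lay on the other side of 1 from the reported ratio, 7 of them in Xist or Y-linked cells and 4 in endothelium with thinning or per-cell means (Vcan 0.869 and 0.930, Adamts1 1.65 and 1.01). Vcan in fibroblasts stayed between 0.660 and 0.791. In fibroblasts, the count of members lower by 1.5-fold went from 2 to 1 with a mitochondrial limit of 5% (Has2 lost) and in Xist cells (Adamts5 in place of Has2 and Tnfaip6), to 0 at 2-fold, and to 3 in Y-linked cells (Hapln1, Has2 and Cd44, without Tnfaip6), and the count higher went from 0 to 1 with cells thinned and to 2 in Xist cells. In macrophages the count higher went from 0 to 1 with cells over several rules kept and with at least 30 UMIs, and the count lower to 1 with scaling by the median gene ratio and in Y-linked cells. In endothelium the count higher went from 1 to 2 with thinning, per-cell means, no cell filter or Xist cells (Adamts5 not among them with thinning or in Xist cells), and to 0 at 2-fold, and the count lower from 0 to 1 with cells over several rules kept or median scaling and to 2 in Y-linked cells. The cause was not tested. The share of all genes past the limit is given at the main setting only. Counts under other settings are therefore not read as results about the members. Hapln1 in Y-linked fibroblasts rested on 11 UMIs in each library. With cells over several rules kept, Vcan also passed 1.5-fold in fibroblasts (0.660).

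Of 40 shares of cells, 38 left their interval at another depth, since a share grows with the UMIs per cell. No paired analysis was possible because each genotype has 1 library, and no replicate could be left out. The 29 WT endothelial cells limit every endothelial ratio, and a genotype difference cannot be told apart from a difference of sex, pooled animals or library preparation.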

Other observations

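The receptor Cd44 and Vcan were compared fibroblast by fibroblast. At 2000 UMIs per cell, Vcan was found in 56.0% of the 50 WT fibroblasts with a Cd44 UMI and 56.6% of the 242 without, and in 60.6% of the 132 mgR fibroblasts with Cd44 and 47.3% of the 714 without. The difference between the libraries was not tested.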
